A study of Mus musculus with 6 samples.

Results

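Toll-like receptors, their co-receptor CD14 and the adaptor MyD88 were followed as 10 genes chosen by name (Tlr1, Tlr2, Tlr3, Tlr4, Tlr6, Tlr7, Tlr8, Tlr13, Cd14 and Myd88) out of 54532 genes in the deposited tables, and all 10 had enough reads to be among the 14624 genes tested. Primary wild-type mouse bone marrow mesenchymal stem cells (BMSCs), adherent cells of the marrow stroma with osteoblast potential, were kept for 7 days in osteogenic medium, either with nickel ions at 0.1 μM (Ni group, 3 libraries) or with vehicle (control group, 3 libraries). Both groups received the osteogenic inducers ascorbic acid at 50 μg/mL, β-glycerophosphate at 10 mM and dexamethasone, a glucocorticoid that the sample labels put at 100 nM and the methods of the study at another concentration. The libraries were described as independent biological replicates, and totals ran from 16101033 to 18642504 counts per library. The labelled mesenchymal cells were not the only cells whose transcripts were read, as the markers given further on show, and the count of a gene in such bulk RNA cannot tell fewer cells of a type from less RNA per cell.

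Toll-like receptors are innate immune sensors. TLR2 pairs with TLR1 or TLR6 at the cell surface to recognize bacterial lipopeptides, and TLR4, with the secreted partner MD-2 and the surface protein CD14, recognizes lipopolysaccharide. TLR3, TLR7, TLR8 and TLR13 sit in endosomes and recognize RNA. All of these except TLR3 signal through MyD88 to NF-κB, and macrophages carry most of them, whereas stromal cells and osteoblasts are known for TLR2, TLR3 and TLR4. Human TLR4 has been reported as a sensor of nickel that binds the metal through histidines which mouse TLR4 lacks, so a comparison of these genes with and without nickel is of interest in mouse cells.

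Tlr1 and Tlr6 needed a check of their sequence before their counts were read, because they lie next to each other on the minus strand of chromosome 5 and resemble each other. In the GENCODE M21 transcripts, 454 of the 3332 stretches of 50 bases in Tlr1 (13.6%) also occur in Tlr6, and none of the other 8 genes shared such a stretch with another member. The coding sequences were identical at 78.0% of 2327 aligned bases, and the shared stretches fell into 6 coding runs, the longest of 229 bases. One of these runs is shown because a read that lies wholly within it fits either gene. The run lies at chr5:64925767-64925885 in Tlr1 and at chr5:64954058-64954176 in Tlr6 (GRCm38, minus strand, 119 bases).
Tlr1 and Tlr6 shared run: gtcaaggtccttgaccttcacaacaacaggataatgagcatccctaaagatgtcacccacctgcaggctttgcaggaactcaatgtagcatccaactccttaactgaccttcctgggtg
How reads that match both genes were counted is not given in the sources used here, so the counts of Tlr1 and Tlr6 carry this uncertainty.

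Upstream sequence is printed for the 3 genes whose difference had an unadjusted p under 0.05 (Tlr1, Tlr2 and Myd88, described below). RefSeq windows (GRCm38.p6) of 300 bases, 250 before to 50 after a start site, were found for 7 of the 10 genes, and the printed part stops at the first base of any annotated exon. Capitals mark matches, on either strand, to the NF-κB consensus, to the GAAA repeat (GAAA, any 2 bases, GAAA, a pattern of interferon regulatory factors) or to GAGGAA (part of the pattern of the myeloid factor PU.1). TGANTCA, the AP-1 pattern, was also searched.
Tlr1, chr5:64933564-64933808, minus strand: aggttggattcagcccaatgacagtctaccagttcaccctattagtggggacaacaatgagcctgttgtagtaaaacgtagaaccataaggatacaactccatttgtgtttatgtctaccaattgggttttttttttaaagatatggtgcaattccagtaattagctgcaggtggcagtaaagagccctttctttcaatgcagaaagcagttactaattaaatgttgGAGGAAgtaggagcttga
Tlr2, chr3:83841768-83841858, minus strand: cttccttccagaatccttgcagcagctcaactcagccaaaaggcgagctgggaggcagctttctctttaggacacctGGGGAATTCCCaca
Myd88, chr9:119340042-119340268, minus strand: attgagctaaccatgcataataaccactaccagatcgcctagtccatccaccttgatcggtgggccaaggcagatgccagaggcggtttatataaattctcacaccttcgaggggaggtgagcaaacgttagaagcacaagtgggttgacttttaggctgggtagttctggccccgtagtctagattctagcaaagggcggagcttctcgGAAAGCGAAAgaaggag
The Tlr2 window held overlapping NF-κB consensus matches at bases -173 to -164 and -172 to -163 from the RefSeq start site, and another match at -8 to 2 that straddles the start and is not printed. The Myd88 match to the GAAA repeat lay at -40 to -31 and the Tlr1 match to GAGGAA at -23 to -18. The Myd88 window lies inside the gene as the deposited table bounds it. Of 32851 such windows in the table, 8.46% held the NF-κB consensus, 3.44% the GAAA repeat, 28.3% GAGGAA and 7.81% TGANTCA, so each match is a description of the letters only. Among the other windows of these genes, Tlr3 held the NF-κB consensus, Tlr6 the GAAA repeat, and Tlr8 and Tlr13 GAGGAA, and none held TGANTCA.

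With respect to level, the 10 genes spanned a wide range per gene length, measured as FPKM (reads scaled to gene length and library total, as deposited). Cd14 was the most abundant in all 6 libraries, with 262, 279 and 268 FPKM across control replicates 1 to 3 and 244, 231 and 236 FPKM across Ni replicates 1 to 3. The 6 values fell into separate groups, every control above every Ni library. Tlr2 followed, with a mean of 91.5 ± 10.7 FPKM (SD, n = 3) in controls and 75.0 ± 3.78 FPKM (SD, n = 3) in Ni libraries. The endosomal receptors Tlr13 and Tlr7 came next, at 60.7 ± 5.46 and 54.7 ± 3.74 FPKM (SD, n = 3) in controls and 62.1 ± 1.99 and 54.2 ± 4.31 FPKM (SD, n = 3) in Ni libraries. Tlr13 exceeded Tlr7 in 6 of 6 libraries, although their ranges overlapped in the controls. Tlr1 changed its place in this order by the mean. It stood above Tlr13 and Tlr7 in the controls, at 68.4 ± 22.5 FPKM (SD, n = 3). In the Ni libraries it stood below both, at 38.6 ± 1.26 FPKM (SD, n = 3). Control replicate 3 alone had the order of the Ni libraries, with Tlr1 at 42.4, Tlr7 at 53.4 and Tlr13 at 66.0 FPKM. Tlr8 and Myd88 had control means of 33.4 ± 1.71 and 29.6 ± 4.95 FPKM (SD, n = 3), with overlapping control ranges and with Tlr8 higher in 6 of 6 libraries. Tlr4 and Tlr6 had control means of 12.7 ± 0.829 and 10.7 ± 1.19 FPKM (SD, n = 3), again with overlapping control ranges and with Tlr4 higher in 6 of 6 libraries. Tlr3 was the lowest of the 10, with 1.57 to 2.01 FPKM in controls and 1.70 to 2.38 FPKM in Ni libraries. In the Ni libraries the ranges of all neighbours in the order of the mean over 6 libraries were apart.

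**Figure D1:**
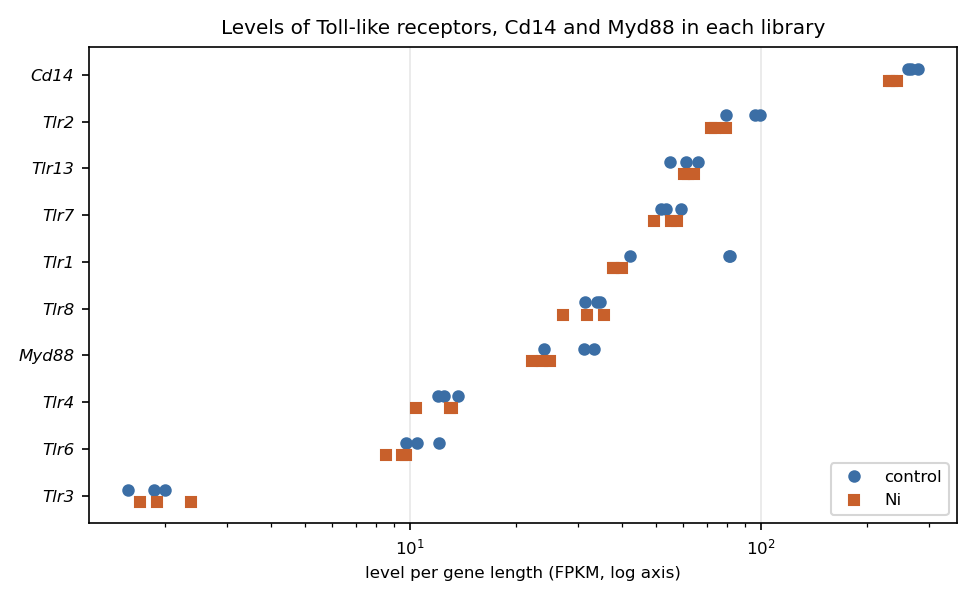
Level of each gene in each library, in FPKM on a log axis, with circles for the 3 control libraries and squares for the 3 Ni libraries. Cd14 lies highest, at 231 to 279 FPKM, Tlr3 lies lowest, at 1.57 to 2.38 FPKM, and Tlr1 shows a single control library (42.4 FPKM) near the Ni libraries.

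None of the 10 genes differed between the groups at an adjusted p under 0.05 (quasi-likelihood F test of edgeR, p adjusted by Benjamini-Hochberg over 14624 genes), and no gene of the whole table did (0% called). At an unadjusted p under 0.05, Tlr1, Tlr2 and Myd88 were lower in Ni libraries and no member was higher, where 5.83% of all genes tested were lower and 7.59% higher by this rule. DESeq2's Wald test called 1 member lower at an adjusted p under 0.05, Tlr1, against 0.368% of the genes to which it gave an adjusted p, and edgeR without a filter on low counts also called Tlr1 alone lower, against 1.42%. For 4 members (Tlr1, Tlr2, Tlr6 and Cd14) all 3 Ni libraries lay below all 3 controls, against 6.71% of all genes tested, and none had all Ni libraries above, against 7.97%. With 3 libraries against 3, an exact two-sided permutation test cannot give a p under 0.1. On the log2 scale 8 of the 10 genes had a negative fold change (Ni against control), with a median of -0.14 beside -0.01 over all genes tested. Values that follow in CPM are counts scaled to a common library total after TMM normalization, and each gene's level in CPM is compared only with itself.

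**Figure D2:**
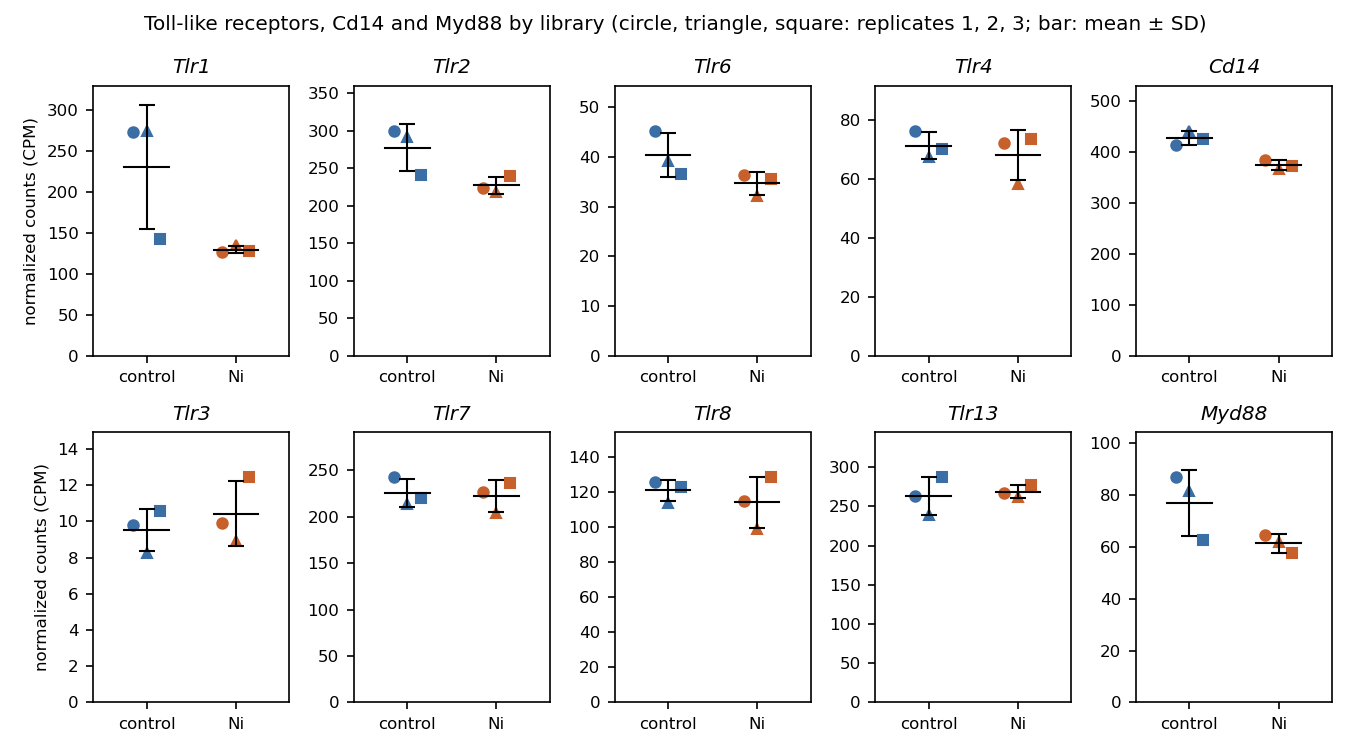
TMM-normalized level (CPM) of each gene in the 3 control libraries (blue) and the 3 Ni libraries (orange), with replicates 1, 2 and 3 as circle, triangle and square and the mean ± SD as bars. In Tlr1, Tlr2, Tlr6 and Myd88 control replicates 1 and 2 lie above all other libraries, whereas Tlr4, Tlr7, Tlr8 and Tlr13 overlap between the groups.

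Among the surface receptors for lipopeptides, Tlr1 (ENSMUSG00000044827, chr5:64924679-64933563, minus strand) had the largest difference of the 10 genes. It was at 273, 275 and 143 CPM across control replicates 1 to 3 and at 127, 135 and 128 CPM across Ni replicates 1 to 3. Control replicates 1 and 2 stood far above the rest, and control replicate 3 lay just above the Ni libraries. On the log2 scale Ni minus control was -0.83 (standard error, SE, 0.23, 95% interval -1.35 to -0.30, adjusted p = 0.293 in edgeR), which corresponds to a level 43.6% lower by the fitted fold. The spread among controls, an SD of 0.54 on log2 CPM, was the widest of any member in either group, while among Ni libraries it was 0.05.

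Tlr2 (ENSMUSG00000027995, chr3:83836272-83841767, minus strand), the shared partner of TLR1 and TLR6, was at 300.0, 292 and 241 CPM across control replicates 1 to 3. Across Ni replicates 1 to 3 it was at 223, 219 and 239.7 CPM. The groups were separated by less than 2 CPM, between control replicate 3 and Ni replicate 3, and under the size factors of DESeq2, taken over unfiltered counts, they overlapped. The log2 fold change was -0.29 (SE 0.11, 95% interval -0.54 to -0.04, adjusted p = 0.339 in edgeR). Tlr6 (ENSMUSG00000051498, chr5:64952031-64960097, minus strand), which pairs with TLR2 for diacylated lipopeptides, was at 45.2, 39.2 and 36.7 CPM in controls and at 36.4, 32.1 and 35.6 CPM in Ni libraries. Control replicate 3 and Ni replicate 1 were almost equal, and these groups too overlapped under DESeq2's size factors. The log2 fold change of Tlr6 was -0.22 (SE 0.11, 95% interval -0.47 to 0.03, adjusted p = 0.419 in edgeR).

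The ratios between TLR2 and its partners set control replicates 1 and 2 apart for Tlr1 but not for Tlr6. The ratio of Tlr1 to Tlr2, each in FPKM, was 0.821, 0.847 and 0.534 across control replicates 1 to 3 and 0.510, 0.557 and 0.481 across Ni replicates 1 to 3. The ratio in control replicate 3 fell within the range of the Ni libraries. For Tlr6 to Tlr2 the ratio ran from 0.108 to 0.123 in controls and from 0.119 to 0.132 in Ni libraries, with overlap. The ratio of Tlr1 to Tlr6 was 6.73, 7.81 and 4.35 in controls and 3.88, 4.70 and 4.01 in Ni libraries, again with control replicate 3 inside the range of the Ni group.

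Tlr4 (ENSMUSG00000039005, chr4:66827584-66930284, plus strand), the lipopolysaccharide receptor, was at 76.3, 67.3 and 70.1 CPM across control replicates 1 to 3 and at 72.4, 58.2 and 73.4 CPM across Ni replicates 1 to 3. The groups overlapped, and Ni replicate 2 held the lowest value. The log2 fold change was -0.07 (SE 0.11, adjusted p = 0.835 in edgeR), and its 95% interval from -0.32 to 0.18 is the range of differences that these libraries leave for this gene. Cd14 (ENSMUSG00000051439, chr18:36725074-36726736, minus strand), which passes lipopolysaccharide to TLR4, was at 415, 441 and 425 CPM in controls and at 384, 366 and 373 CPM in Ni libraries. Its groups did not overlap and its spread was the narrowest of the 10 genes, with an SD on log2 CPM of 0.05 in controls and 0.04 in Ni libraries. The log2 fold change of Cd14 was -0.19 (SE 0.10, 95% interval -0.40 to 0.02, adjusted p = 0.413 in edgeR), a level 12.3% lower by the fitted fold.

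Of the endosomal receptors none approached the threshold. Tlr3 (ENSMUSG00000031639, chr8:45395665-45411080, minus strand), a receptor for double-stranded RNA that signals without MyD88, had the fewest counts, 179, 131 and 176 in controls and 183, 155 and 225 in Ni libraries. Its log2 fold change of 0.13 had the widest interval of this class, from -0.27 to 0.53 (adjusted p = 0.791 in edgeR), and 7.32% of its exon bases lie under an antisense gene, Gm45542, which counts without strand could not separate. Tlr7 (ENSMUSG00000044583, chrX:167304929-167330558, minus strand), a receptor for single-stranded RNA, was at 242, 213 and 220.1 CPM in controls and at 227, 204 and 236 CPM in Ni libraries. The groups overlapped, with the highest value in a control and the lowest in a Ni library, and the log2 fold change was -0.02 (95% interval -0.25 to 0.21, adjusted p = 0.959 in edgeR).

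Tlr8 (ENSMUSG00000040522, chrX:167242696-167264329, minus strand), the neighbour of Tlr7, was at 126, 114 and 123 CPM in controls and at 115, 99.0 and 128 CPM in Ni libraries. Both the lowest and the highest value belonged to Ni libraries, and the log2 fold change was -0.08 (95% interval -0.33 to 0.16, adjusted p = 0.781 in edgeR). Tlr13 (ENSMUSG00000033777, chrX:106143204-106160493, plus strand), a receptor for bacterial ribosomal RNA, was at 264, 239 and 287 CPM in controls and at 267, 262 and 278 CPM in Ni libraries. Here the controls enclosed the Ni libraries on both sides, with a log2 fold change of 0.03 (95% interval -0.20 to 0.26, adjusted p = 0.923 in edgeR).

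Myd88 (ENSMUSG00000032508, chr9:119335934-119341411, minus strand), the adaptor that carries the signal of the receptors above other than TLR3, was at 86.7, 81.4 and 62.5 CPM across control replicates 1 to 3. Across Ni replicates 1 to 3 it was at 64.5, 61.8 and 57.5 CPM. Control replicate 3 lay inside the range of the Ni libraries, so the groups overlapped. The log2 fold change was -0.33 (SE 0.13, 95% interval -0.61 to -0.04, adjusted p = 0.340 in edgeR), and 11.3% of its exon bases lie under the opposite-strand gene Acaa1a, so that without strand its reads there could not be told apart from those of that gene.

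Without control replicate 3, edgeR called 3 members lower at an adjusted p under 0.05, against 6.49% of all genes tested that were called lower, and called no member higher, against 8.69%. These were Tlr1 at -1.07 (SE 0.08, adjusted p = 4.01e-05 in edgeR), Tlr2 at -0.38 (SE 0.09, adjusted p = 0.0105) and Myd88 at -0.45 (SE 0.10, adjusted p = 0.00723). For these 3 genes control replicate 3 was the control nearest to the Ni libraries. Leaving it out widened the difference and narrowed the spread of the controls. The calls are therefore no separate support for a difference, and those given for the gene lists below carry the same limit. With any other single library left out, no member was called. In the same fit Tlr4 was at -0.07 (adjusted p = 0.754 in edgeR) and Cd14 at -0.19 (adjusted p = 0.169), close to their values with all libraries. Without control replicate 3, groups that did not overlap were found for 5 members that were lower and for Tlr13, which was higher. The shares of all genes tested were 20.8% and 22.2%. TMM was recomputed on the remaining libraries for this. On the CPM given above, Tlr13 in Ni replicate 2 (262 CPM) lay below control replicate 1 (264 CPM).

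**Figure D3:**
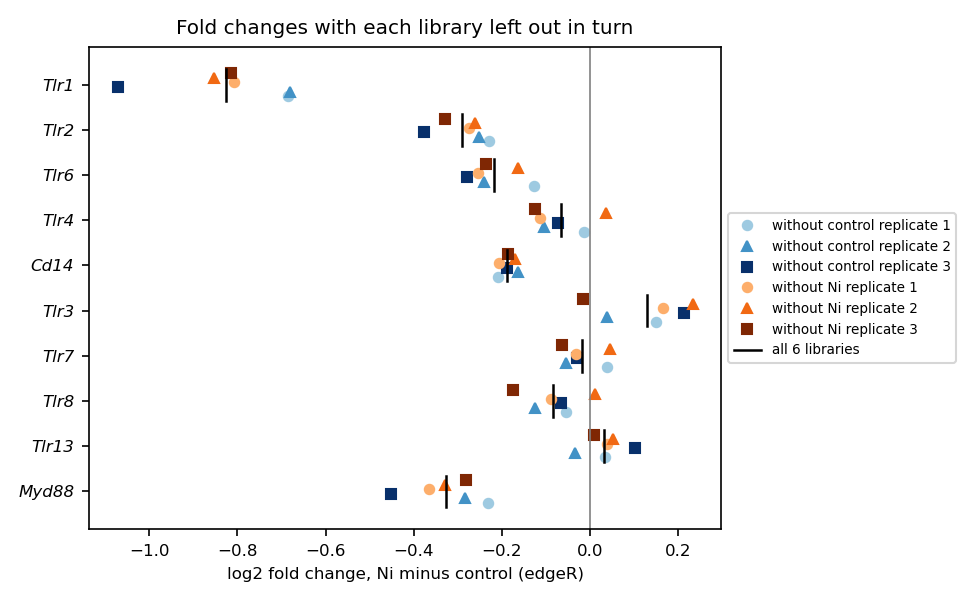
Log2 fold change of each gene (Ni minus control, edgeR) with all 6 libraries (black line) and with each library left out in turn (blue, a control left out; orange to brown, a Ni library left out; circle, triangle and square for replicates 1, 2 and 3). Leaving out control replicate 3 moves Tlr1 to -1.07 and Myd88 to -0.45, while Cd14 stays between -0.21 and -0.16.

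The 10 genes thus varied in different ways across the 6 libraries. For Tlr1, Tlr2, Tlr6 and Myd88, control replicates 1 and 2 lay above all other libraries, and for Tlr4, Tlr7 and Tlr8 they did not. The highest value of Tlr4 and of Tlr7 was nevertheless in control replicate 1. Over the 6 libraries, log2 CPM of Tlr4 had a Pearson's r of 0.94 with Tlr7 and of 0.92 with Tlr8. Higher still was the r of Tlr1, at 0.96 with Myd88 and 0.96 with Tlr2. These values share the same libraries, normalization and groups and are given as a description. The genes whose pattern was most like that of Tlr4 among all genes tested were Degs1, Rnf13, Dcun1d1, B2m and Rc3h2, with r from 0.986 to 0.993 over 6 libraries. Apart from Tlr4 itself, 76 of the 14624 genes tested exceeded an r of 0.95.

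Markers of other cells were read beside these genes. Of 20 macrophage markers all were detected and tested, among them Csf1r, the receptor for the macrophage growth factor CSF-1, at 1763 to 1929 CPM in controls and 1830 to 1918 CPM in Ni libraries. Their summed level ran from 30923 to 35530 CPM in controls, highest in control replicate 3, and from 30407 to 31011 CPM in Ni libraries. Lyz2, the lysozyme gene, supplied 29.7% to 42.5% of this sum. Without Lyz2, a sum added after the data were seen, the other markers gave 20594, 22796 and 20432 CPM in controls and 18822, 19606 and 17891 CPM in Ni libraries, so that every control lay above every Ni library and control replicate 3 was the lowest control. The median log2 fold change of these 20 markers was -0.18, close to the -0.14 of the receptor genes. At an unadjusted p under 0.05, 6 markers were lower and 0 higher, against 5.83% and 7.59% of all genes tested. At an adjusted p under 0.05, 0 were called. Without control replicate 3, 8 of the 20 were called lower and 1 higher by edgeR, against 6.49% and 8.69% of all genes tested. Marco, a scavenger receptor with the smallest p of the 20 and named after its values were seen, was at 1005, 1305 and 714 CPM in controls and at 634, 656 and 588 CPM in Ni libraries, with control replicate 3 nearest to the Ni group. Mrc1, the mannose receptor, had another pattern, at 1587, 1391 and 2543 CPM in controls and at 2221, 2154 and 2144 CPM in Ni libraries, with control replicate 3 the highest of all. Over the 20 markers, control replicate 3 lay above all Ni libraries in 9, within their range in 10 and below it in 1. The part of macrophage number or state in the values of the receptor genes was not tested.

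The 15 stromal and osteoblast markers summed to 12574, 13461 and 22958 CPM across control replicates 1 to 3 and to 28142 to 37037 CPM in Ni libraries, so transcripts of the labelled cell type were present, every Ni library lay above every control, and control replicate 3 was again nearest to the Ni group. Of these markers 12 were higher at an unadjusted p under 0.05, against 7.59% of all genes tested, and 0 were called. Without control replicate 3 edgeR called 11 higher, against 8.69% of all genes tested. Most of the summed level of this list came from Col1a1 and Col1a2 in every library. Of the 15 markers 14 had a positive log2 fold change, but Pdgfra at 0.07 and Thy1 at -0.07 were near 0. Of 10 neutrophil markers, S100a9, Ltf, Ngp and Retnlg were at 0 in every library, and the list summed to 53.4 to 79.1 CPM, most of it from Csf3r. Dendritic cell markers summed to 6.80 to 13.6 CPM and endothelial markers to 41.1 to 72.2 CPM. Osteoclast markers summed to 1136, 1339 and 657 CPM across control replicates 1 to 3 and to 610 to 686 CPM in Ni libraries. Most of this sum came from Acp5, and control replicate 3 lay inside the range of the Ni group. The sum does not stand for each marker: of 4 tested, 2 were lower and 2 higher, with log2 fold changes from -0.90 to 0.62.

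The partners of the receptors had fold changes in both directions. Of 16 genes (co-receptors, chaperones and the other Toll-like receptors) 14 were tested, and 0 were called at an adjusted p under 0.05. At an unadjusted p under 0.05, 2 were lower and 1 higher, against 5.83% and 7.59% of all genes tested. Their median log2 fold change was -0.10. Without control replicate 3, edgeR called 6 lower and 4 higher, against 6.49% and 8.69% of all genes tested, and their median was -0.20. Ly96, which encodes MD-2, the partner that TLR4 needs to bind lipopolysaccharide, was at 19.2, 16.3 and 12.7 CPM in controls and at 12.9, 12.7 and 11.4 CPM in Ni libraries. Control replicate 3 fell among the Ni libraries, and the log2 fold change was -0.38 (SE 0.17, adjusted p = 0.365 in edgeR). Cd36, a scavenger receptor that assists TLR2 with TLR6, had a log2 fold change of -0.54 (SE 0.23, adjusted p = 0.367 in edgeR).

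Hsp90b1, the endoplasmic reticulum chaperone that folds most Toll-like receptors, had a log2 fold change of 0.29 (SE 0.12, adjusted p = 0.358 in edgeR), with all Ni libraries above all controls. Unc93b1, which escorts the endosomal receptors, was at 1224, 1384 and 849 CPM in controls and at 917, 943 and 811 CPM in Ni libraries, and its log2 fold change was -0.37 (SE 0.17, adjusted p = 0.379 in edgeR). Ly86, which encodes the MD-1 protein bound by the receptor relative CD180, was at -0.54 (SE 0.25, adjusted p = 0.396). Of the remaining members of the family, named after their values were seen, Tlr9, a receptor for CpG DNA, averaged 47.5 ± 13.6 CPM among controls and 34.1 ± 8.83 CPM among Ni libraries (SD, n = 3 each). Tlr5, the flagellin receptor, averaged 7.28 ± 2.26 and 9.94 ± 1.28 CPM (SD, n = 3 each), and both genes overlapped between the groups. Tlr11 had 2 counts, in 1 Ni library, and Tlr12 had 5 and 2 counts in 2 control libraries, and both were too low to test.

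**Figure D4:**
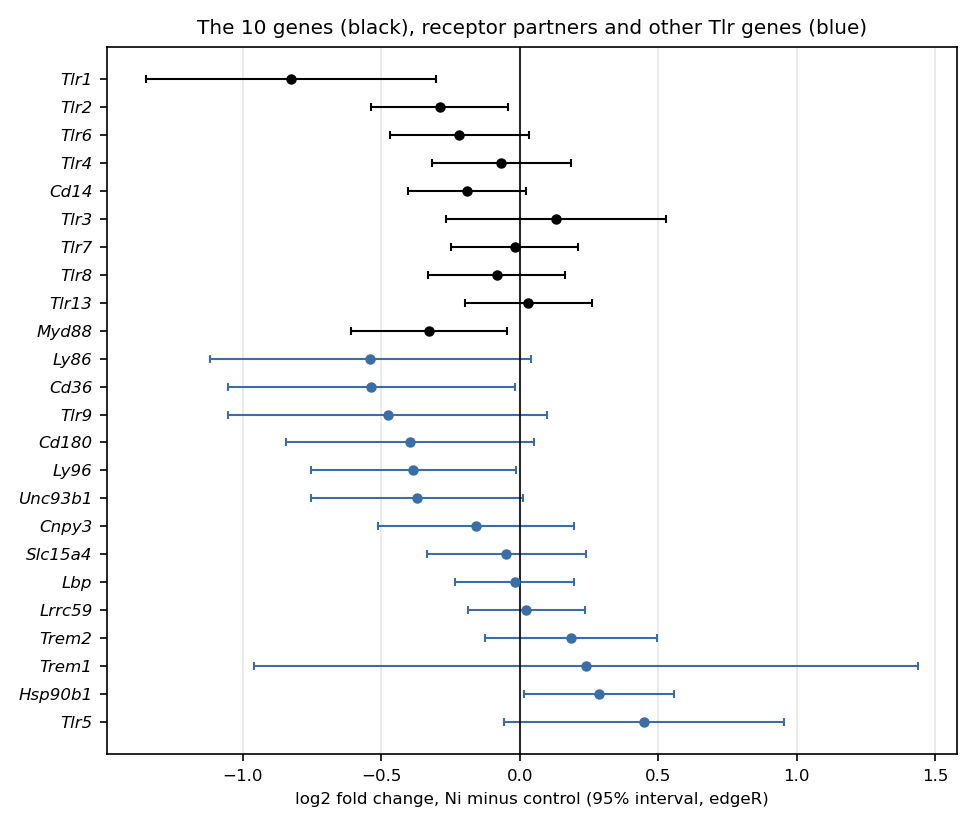
Log2 fold change (Ni minus control, edgeR) with its 95% interval for the 10 genes (black) and for the 14 tested receptor partners and other Toll-like receptors (blue). The intervals of Tlr1, Tlr2 and Myd88 lie below 0, that of Tlr4 runs from -0.32 to 0.18, and no gene shown passed an adjusted p of 0.05.

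Downstream of the receptors, 39 of 40 signalling genes were tested, and 0 were called at an adjusted p under 0.05. At an unadjusted p under 0.05, 10 were lower and 0 higher, against 5.83% and 7.59% of all genes tested. The median log2 fold change of the list was -0.19. Without control replicate 3 edgeR called 14 lower and 0 higher, against 6.49% and 8.69% of all genes tested. The 5 with the smallest p included brakes of the pathway as well as activators. Irak3, an inhibitor of the MyD88 complex, was at 237, 236 and 172 CPM in controls and at 159, 161 and 154 CPM in Ni libraries (log2 fold change -0.44, SE 0.13, adjusted p = 0.293 in edgeR). Tnfaip3, which encodes the NF-κB inhibitor A20, was at 121, 127 and 94.3 CPM in controls and at 80.7, 92.7 and 87.4 CPM in Ni libraries (log2 fold change -0.39, SE 0.12, adjusted p = 0.296 in edgeR). For both genes the groups did not overlap, and control replicate 3 was the control nearest to the Ni libraries. The kinase Irak2 and the NF-κB subunits Relb and Nfkb2 had log2 fold changes of -0.37, -0.39 and -0.39. The adaptor Tirap, which links MyD88 to TLR2 and TLR4, was at -0.42 (SE 0.18, adjusted p = 0.363 in edgeR), and Ticam1, which encodes the adaptor TRIF used by TLR3 and TLR4, was at -0.24 (SE 0.17, adjusted p = 0.584).

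Of the 3 lists of pathway genes, the genes that these receptors are known to induce had the median farthest from 0. All 3 lists were chosen with earlier results of these data known. Of 36 such genes 29 were tested, and 0 were called at an adjusted p under 0.05 by edgeR, whereas DESeq2 called 6, against 1.94% of all genes in either direction. Without control replicate 3, edgeR called 13 lower and 3 higher, against 6.49% and 8.69% of all genes tested. At an unadjusted p under 0.05, 13 were lower and 1 higher, against 5.83% and 7.59% of all genes tested. The median log2 fold change of the list was -0.42. The 5 with the smallest p were Saa3 and Lcn2, both acute-phase genes, Acod1, which makes itaconate, the chemokine Ccl3 and the superoxide dismutase Sod2. Saa3 was at 599.6, 673 and 447 CPM in controls and at 214, 297 and 209.6 CPM in Ni libraries. This gave a log2 difference of -1.26 (SE 0.18, adjusted p = 0.185 in edgeR). Lcn2, Acod1, Ccl3 and Sod2 had log2 fold changes of -1.01, -0.78, -0.61 and -0.51. In all 5 genes every Ni library lay below every control, which follows in part from their choice by p. Of the 29 tested genes, 10 had all Ni libraries below all controls and 1 had them above. Over all genes tested these shares were 6.71% and 7.97%.

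Tnf, the inflammatory cytokine, was at 95.1, 97.6 and 65.0 CPM in controls and at 50.2, 63.4 and 54.7 CPM in Ni libraries. Every Ni library lay below every control, and the log2 fold change was -0.62 (SE 0.16, adjusted p = 0.262 in edgeR). Il1b averaged 2.52 ± 0.118 CPM among controls and 1.91 ± 0.186 CPM among Ni libraries (SD, n = 3 each) (log2 fold change -0.40, adjusted p = 0.533 in edgeR). Il6 had 4, 0 and 0 counts in controls and 2, 5 and 2 counts in Ni libraries and was too low to test, and Il12b and Ifnb1 were at 0 in every library. The single gene of the list that was higher at an unadjusted p under 0.05 was Ptgs2, which encodes cyclooxygenase 2, at a log2 fold change of 0.80 (SE 0.33, adjusted p = 0.367 in edgeR). Ptgs2 was at 15.8, 11.7 and 30.9 CPM in controls and at 35.9, 28.0 and 37.7 CPM in Ni libraries. Its groups overlapped, with control replicate 3 inside the range of the Ni libraries.

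**Figure D5:**
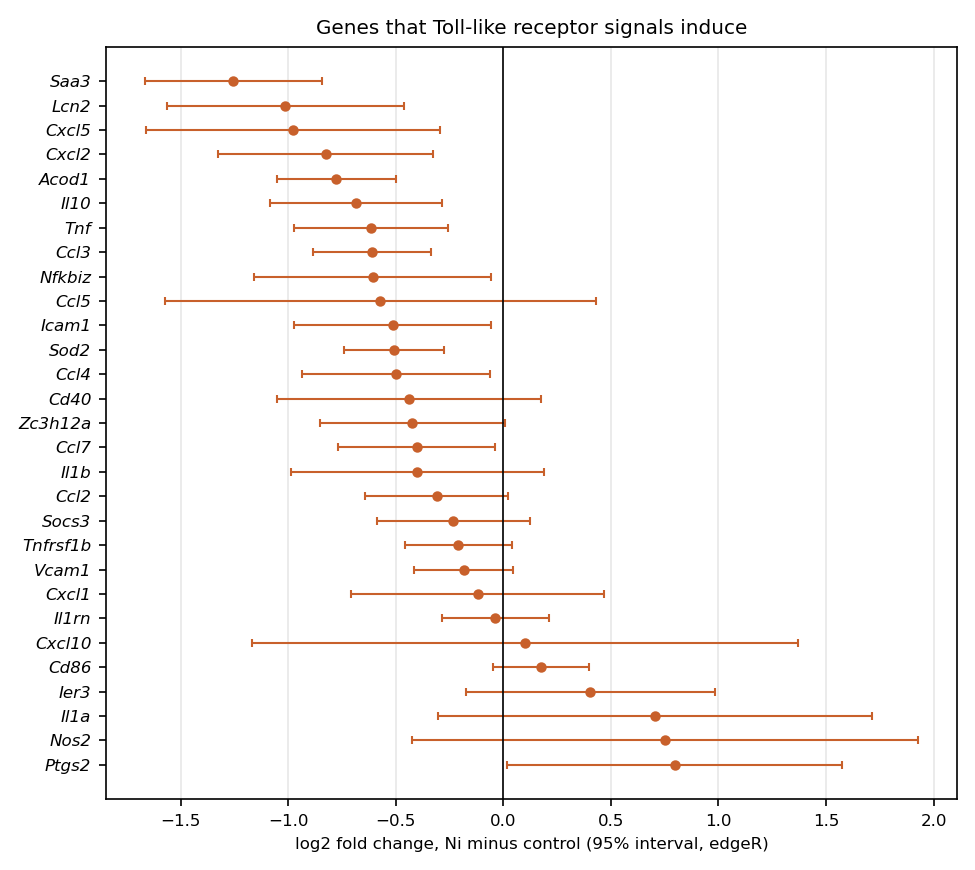
Log2 fold change (Ni minus control, edgeR) with its 95% interval for the 29 tested genes that Toll-like receptor signals induce. Saa3 lies lowest at -1.26 and Ptgs2 highest at 0.80, and none passed an adjusted p of 0.05.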

How the data were processed

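RNA-seq libraries of 6 BMSC cultures were analysed from 3 deposited tables. Per the labels and file headers, the authors deposited counts as whole reads per gene without normalization, FPKM values per gene and a gene annotation. The submitters' processing notes name GRCm38, and the aligner, the counting tool and the strand setting are not given in the sources used here. The deposited FPKM equalled count over gene length times 1 factor per library (largest relative deviation 3.29e-07).

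Counts of all genes were filtered by filterByExpr of edgeR 4.0.16 (R 4.3.3), normalized by TMM and tested by glmQLFit (robust) and glmQLFTest with Benjamini-Hochberg adjustment over 14624 genes. The SE of a log2 fold change was taken as the unshrunk estimate over the square root of its F statistic, and 95% intervals used the degrees of freedom of that test. DESeq2 1.42.0 and limma 3.58.1 served as alternatives. Libraries of a group differed beyond sampling noise (chi-square per degree of freedom from 4.56 to 47.8). The scripts were tested on simulated data. Promoters came from RefSeq, and transcripts and exons from GENCODE M21.

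The members and gene lists were chosen with earlier results of these data known. Named genes were all 10 members, the 5 with the smallest unadjusted p of each of the 3 pathway lists (receptor partners, signalling and response genes), and Ly96, Unc93b1, Tirap, Ticam1, Tnf, Il1b and Il6. Further genes were named after values were seen (Ptgs2, Marco, Lyz2, Mrc1, Csf1r, Csf3r, Acp5, Col1a1, Col1a2, Pdgfra, Thy1, the remaining Tlr genes, and genes at 0).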

Additional observations from a re-analysis of the deposited data

How the results depend on the processing

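All 13 alternatives for these genes were planned. Across them Tlr1, Tlr2, Tlr6, Cd14 and Myd88 kept a negative log2 fold change, and the median over the 10 genes, -0.14 in edgeR, lay between -0.18 (without Ni replicate 3) and -0.08 (without Ni replicate 2) in the fits that each left out 1 library. Near 0, signs reversed: without Ni replicate 2, Tlr4 was 0.036, Tlr7 0.045 and Tlr8 0.012, without control replicate 1 Tlr7 was 0.04, without control replicate 2 Tlr13 was -0.033 and without Ni replicate 3 Tlr3 was -0.015. Over the 6 fits Tlr3 ran from -0.015 to 0.23, Tlr4 from -0.12 to 0.036, Tlr7 from -0.063 to 0.045, Tlr8 from -0.18 to 0.012 and Tlr13 from -0.033 to 0.10. Members called at an adjusted p under 0.05 (0 in edgeR) ranged from 0 to 3 over these fits, partner genes from 0 to 10, signalling genes from 0 to 14, response genes from 0 to 16 and all genes from 0 to 2283, each highest without control replicate 3. Members at an unadjusted p under 0.05 ranged from 1 to 5 (3 in edgeR), with 1 without control replicate 1, control replicate 2 or Ni replicate 2 and 5 without control replicate 3, and members whose groups did not overlap from 4 to 6.

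Without a filter on low counts edgeR called 1 member (Tlr1, -0.81, adjusted p = 1.57e-07, where 1.42% of genes were called lower), 3 partner, 8 signalling and 13 response genes and 1027 genes in all. DESeq2's Wald test called 1 member (Tlr1, -0.82, adjusted p = 0.0100), 6 response genes and 264 genes in all, and under its size factors over unfiltered counts 2 members (Tlr1 and Cd14) had groups that did not overlap. The cause was not tested. RLE scaling in edgeR and limma on log2(FPKM + 1) and log2(FPKM + 0.1) called no member. Deviations from the group means correlated at 0.01, 0.26 and 0.14 between libraries of equal number, and the numbers were not treated as pairs; with the replicate block 0 members, 6 response genes and 315 genes in all were called. The 95% intervals of Tlr4 (-0.32 to 0.18) and Tlr7 (-0.25 to 0.21) give the differences that these 6 libraries leave for them.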
